A study of Mus musculus with 12 samples.

Results

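The 31 genes described here mark the oligodendrocyte lineage and the myelin sheath, and they were taken by symbol from the 25749 genes of the tables, where all 31 were found. They comprise 3 surface proteins of progenitors, 3 markers of committed or newly formed oligodendrocytes, 7 transcription factors, 9 proteins of the myelin sheath, 3 further proteins of mature cells, 4 genes of enzymes and transport, and a receptor and a channel protein. The rule uses gene symbols and no measured value, but the 31 were chosen with earlier results of these data known. Total RNA of brain tissue was sequenced from 12 male B6 mice aged 13 weeks, in 3 groups of 4: uninjured mice, injured mice, and injured mice treated continuously with αLFA1/VLA4, antibodies to adhesion receptors through which white blood cells attach to vessel walls. The latter group is called antibody-treated below. The title of the series names a cerebrovascular injury, and tissue was taken 20 days after it, as a frozen cube with edges of 3 mm from mice perfused with saline. The labels call the mice biological replicates. They give neither the brain region of the cube, nor the kind of injury, nor a control antibody.

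Oligodendrocytes are the glia that wrap axons of the central nervous system in myelin, the lipid-rich sheath that speeds conduction. They arise from progenitors that persist in the adult brain, divide after tissue damage, and pass through a short-lived premyelinating stage before they make sheath proteins and lipids. In bulk tissue, fewer oligodendrocytes and less RNA of a gene per oligodendrocyte cannot be told apart.

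In the deposited counts of injured mice, Tspan2, Mal, Cldn11, Omg, Enpp6 and Ugt8a were 21.1 to 37.8% lower than in uninjured mice. These are genes of the sheath, of newly formed oligodendrocytes and of myelin lipid synthesis. They passed in the deposited counts, with each single library left out of those, and in a second analysis described below. Their log2 fold changes were -0.34 to -0.68 in the deposited counts and -0.19 to -0.51 in the second analysis. With 2 libraries named below left out of the second analysis, Enpp6 and Ugt8a did not pass. Mbp, the most abundant of the 31, was not called on the main scale, on which its groups overlapped. On the TPM scale described below, its injured libraries lay above the uninjured ones. The median log2 difference of all genes between these groups was 0.16 on that scale. In antibody-treated mice, Tspan2 and Cldn11 were higher than in injured mice in both analyses, and Mal overlapped the injured mice. The calls of Tspan2 and Cldn11 did not pass on the TPM scale, nor in the second analysis without the same 2 libraries. Gpr17, Mal, Mog, Tspan2 and Tmem88b were lower than in uninjured mice in both analyses. Of 12 fits to the deposited counts that each left out a library, Mal and Gpr17 passed in 12, Tspan2 in 7, Mog in 5 and Tmem88b in 1. Injured mice had higher levels of the transcription factor genes Olig1, Olig2, Nkx2-2 and Nkx6-2 in the deposited counts, and none of these 4 passed once a trend with base composition was removed.

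Exon reads per library ranged from 13330379 to 16121577, with the lowest totals in the antibody-treated mice. Mitochondrial transcripts took 10.3 to 12.01% of these reads in the uninjured group, 4.75 to 7.99% in the injured group and 8.83 to 11.01% in the antibody-treated group, and the part of this share in the results was not tested. Levels are given as CPM (exon reads of a gene relative to the library's total) after TMM scaling, as mean ± SD over 4 libraries. A gene is called changed at a Benjamini-Hochberg adjusted p under 0.05 in edgeR's quasi-likelihood test over all 14771 genes that passed the filter on low counts, and all 31 members passed it. Summed, the 31 members took 0.716 ± 0.0255% of the exon reads of uninjured mice, 0.731 ± 0.0204% of those of injured mice and 0.708 ± 0.0274% of those of antibody-treated mice. These shares overlapped between all 3 groups.

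Across libraries, levels followed the base composition of the transcript. All tested genes were split by the share of G and C in the longest annotated transcript into 5 sets of equal size. The set with the least G and C had a median log2 fold change of -0.30 between injured and uninjured mice, and the set with the most had 0.26. Between antibody-treated and injured mice the same medians were 0.27 and -0.21. Uninjured replicate 1 and injured replicate 4 lay at opposite ends of this trend, with median deviations of 0.24 and -0.36 on the log2 scale in the set of least G and C. The 31 members spanned 38.0 to 64.3% G and C. Across these 31 genes, which are not independent replicates and share the same libraries, Pearson's r between G and C content and log2 fold change was 0.84 for injured against uninjured, 0.41 for antibody-treated against uninjured and -0.85 for antibody-treated against injured. Over all 14771 genes it was 0.58, 0.08 and -0.39. For members called in either analysis, values are given from the counts as deposited and, beside them, after a smooth trend with G and C content and exon length was removed from each library.

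The contrast in composition can be read from the coding sequences of the members at either end among those called between injured and uninjured mice. For each, the 90 coding bases whose composition is nearest to that of the whole coding sequence are shown from the GENCODE M21 transcript, 5′ to 3′, with G and C in capitals.
Nkx6-2, coding bases 34 to 123: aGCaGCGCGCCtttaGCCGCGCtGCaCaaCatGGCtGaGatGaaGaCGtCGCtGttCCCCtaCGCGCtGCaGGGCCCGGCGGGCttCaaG
Olig1, coding bases 7 to 96: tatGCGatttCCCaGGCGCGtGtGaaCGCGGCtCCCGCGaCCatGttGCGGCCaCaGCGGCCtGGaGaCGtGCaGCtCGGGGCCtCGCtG
Ugt8a, coding bases 52 to 141: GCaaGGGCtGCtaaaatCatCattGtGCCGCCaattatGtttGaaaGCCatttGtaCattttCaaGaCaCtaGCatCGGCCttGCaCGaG
Ermn, coding bases 79 to 168: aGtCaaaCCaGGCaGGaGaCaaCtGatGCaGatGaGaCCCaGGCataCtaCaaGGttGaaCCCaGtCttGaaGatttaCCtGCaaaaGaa
Nkx6-2 has 59 G or C among the 90 bases shown and Olig1 has 62, against 40 in Ugt8a and 41 in Ermn. The first pair was higher in injured mice and the second pair lower, and of the 4 only Ugt8a passed when the trend was also removed.

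**Figure D1:**
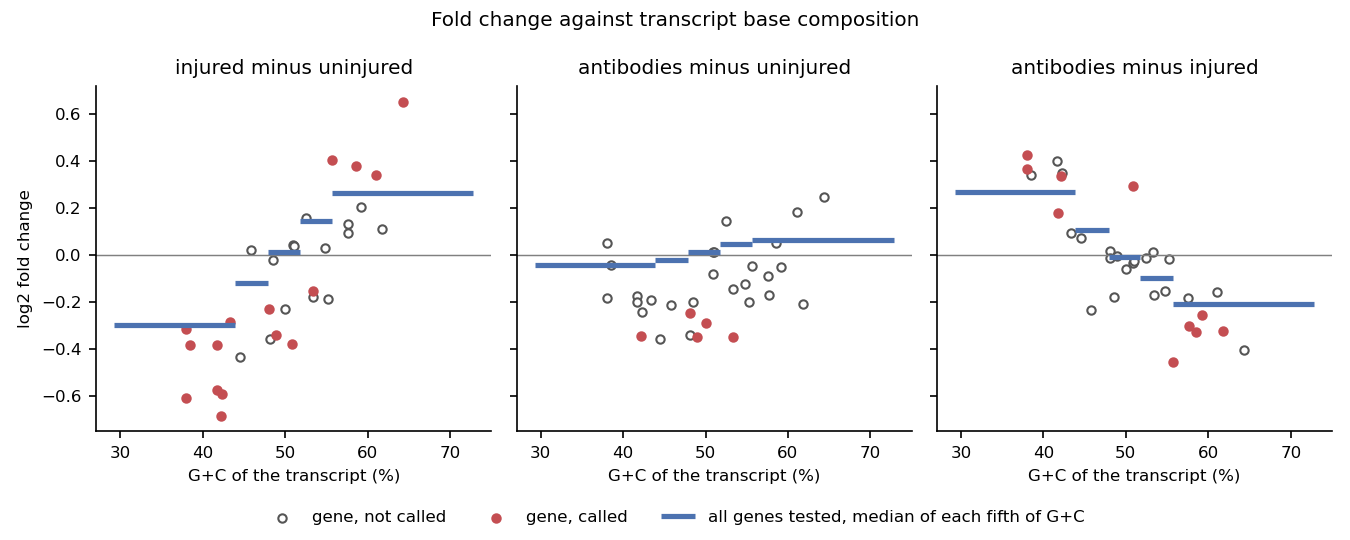
Log2 fold change of each of the 31 genes (points, vertical axis) against the percentage of G and C in its longest transcript (horizontal axis), for the 3 comparisons; filled points passed an adjusted p of 0.05, and blue lines give the median of all tested genes in each of the 5 sets of G and C. Between injured and uninjured mice the points rise over 38.0 to 64.3% G and C, and between antibody-treated and injured mice they fall.

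In injured against uninjured mice, 12 of the 31 members were lower and 4 higher in the counts as deposited. Over all tested genes, 11.0% were lower and 11.9% higher. The median log2 fold change was -0.18 over the members and 0.03 over all genes. With the trend removed, 14 members were lower and 0 higher, against 7.23% and 6.61% of all genes, and 7 members were lower in both analyses: Tspan2, Mal, Cldn11, Omg, Enpp6, Ugt8a and Tmem88b. With both libraries at the ends of the trend left out, an alternative chosen after seeing the data, 5 of these passed (Tspan2, Mal, Cldn11, Omg and Enpp6), and Ugt8a (adjusted p = 0.105) and Tmem88b (adjusted p = 0.161) did not. With the trend removed as well, Enpp6 also did not pass (adjusted p = 0.174). The other 7 called lower with the trend removed were Pdgfra, Gpr17, Sox10, Mog, Mag, Cnp and Fa2h. On the TPM scale described below, Sox10, Mag and Cnp were instead called higher in injured mice. Their differences there were 0.27, 0.29 and 0.19 (adjusted p = 0.0297, 0.00943 and 0.0495 in limma). Pdgfra, Gpr17, Mog and Fa2h did not pass on that scale. Of the calls in the deposited counts, those of St18 and Mobp were each lost in 8 of the 12 fits that left out a library, that of Ermn in 7, Nkx2-2 in 6, Olig1 in 5, Aspa and Gjc3 in 4 and Nkx6-2 in 2. At an unadjusted p under 0.05 in the deposited counts, 22 of the 31 members passed, against 39.5% of all genes. The 4 injured libraries lay below all 4 uninjured ones for 16 members and above them for 4, against 12.9% and 17.4% of all genes.

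**Figure D2:**
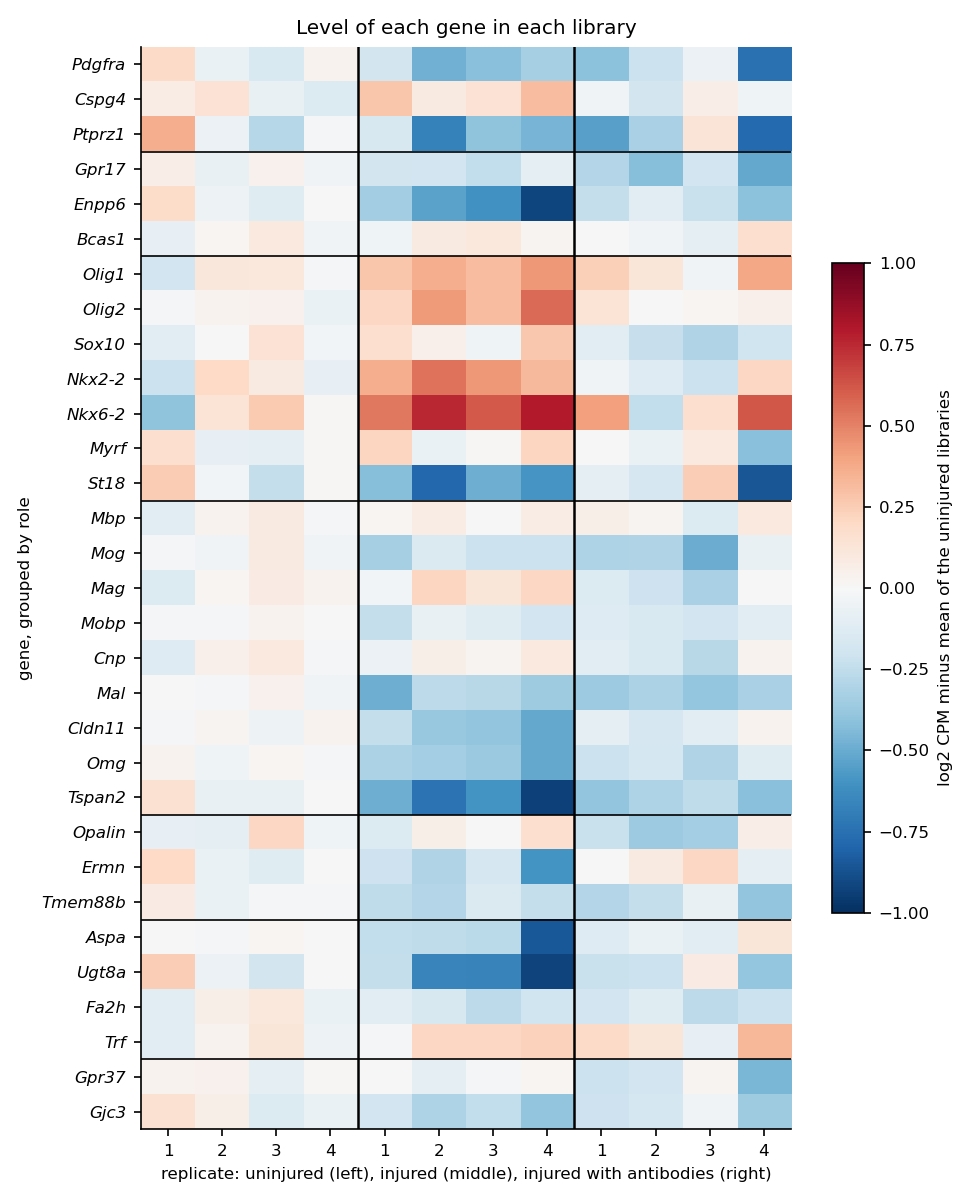
Level of each of the 31 genes (rows, grouped by role) in each of the 12 libraries (columns), as log2 CPM minus the mean of the uninjured libraries, on a color scale from -1 to 1. Injured columns are blue for Tspan2, Enpp6 and Ugt8a and red for Nkx6-2 and Olig2, and the row of Mbp is pale throughout.

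Among the progenitor surface genes, none was called between injured and uninjured mice. Pdgfra encodes the platelet-derived growth factor receptor alpha, which drives progenitor division and is also made by fibroblasts. It measured 53.5 ± 5.66 CPM in uninjured mice, 41.8 ± 3.77 in injured mice and 42.2 ± 8.30 after antibody treatment. All 4 injured libraries were below the uninjured ones, with a log2 fold change of -0.36 ± 0.13 (± SE, adjusted p = 0.0575). After removal of the trend it was -0.19 (adjusted p = 0.0228), which passed. Ptprz1, a receptor-type phosphatase of progenitors and astrocytes, measured 186 ± 36.2, 138 ± 20.5 and 145 ± 40.5 CPM in the same order, with overlapping groups and no call in any comparison. Cspg4 (chr9:56865033-56899870 in GRCm38) encodes the NG2 proteoglycan of progenitors and pericytes. It measured 18.6, 19.5, 16.8 and 16.04 CPM in the 4 uninjured libraries, 21.4, 18.8, 19.6 and 21.9 in the injured and 17.2, 15.5, 18.5 and 17.2 in the antibody-treated. The antibody-treated libraries all lay below the injured ones, with a log2 fold change of -0.26 ± 0.0864 (adjusted p = 0.0496) that was 0.07 with the trend removed (adjusted p = 0.540). The call was also lost in 10 of the 12 fits that left out a library.

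The markers of newly formed oligodendrocytes did not move alike. Enpp6 (chr8:46986887-47096762), a choline phosphodiesterase made by oligodendrocytes as they begin to myelinate, measured 14.7, 12.5, 11.9 and 12.9 CPM in the 4 uninjured libraries, 10.2, 8.96, 8.55 and 6.86 in the injured and 11.01, 12.1, 11.1 and 9.76 in the antibody-treated. Every injured library was below every uninjured one, and the log2 fold change was -0.59 ± 0.12 (adjusted p = 0.00618; -0.29 with the trend removed, adjusted p = 0.0410). Antibody-treated mice overlapped both other groups, at 0.35 ± 0.12 against injured (adjusted p = 0.0522) and -0.24 ± 0.12 against uninjured mice (adjusted p = 0.196), neither of which passed. Gpr17 (chr18:31942997-31949636), a receptor that is switched on in committed progenitors and off again in mature cells, measured 51.4, 46.6, 50.5 and 47.8 CPM in the 4 uninjured libraries, 43.2, 42.9, 41.4 and 45.7 in the injured and 40.0, 36.6, 43.0 and 34.5 in the antibody-treated. It was lowest in antibody-treated mice, all of which lay below the uninjured mice (log2 fold change -0.35 ± 0.0742, adjusted p = 0.00951; -0.28 with the trend removed, adjusted p = 0.00205). The call held with each library left out and was lost on the TPM scale described below (adjusted p = 0.0593). For injured against uninjured mice the value was -0.18 ± 0.0735 (adjusted p = 0.0883), which passed with the trend removed (-0.25, adjusted p = 0.00579). Antibody-treated and injured mice overlapped, and their difference of -0.17 ± 0.0742 did not pass (adjusted p = 0.119). With the trend removed it was -0.02 (adjusted p = 0.789), and on the TPM scale -0.31, which passed in limma (adjusted p = 0.0311). Bcas1, which marks premyelinating and early myelinating cells, measured 211 ± 11.2, 218 ± 10.5 and 213 ± 16.9 CPM in the same order of groups, with a log2 fold change of 0.04 ± 0.0674 in injured mice and a 95% interval of -0.11 to 0.20.

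The transcription factors hold the lineage program, and 4 of the 7 were called higher and 1 lower in injured mice. Olig2 (chr16:91225457-91228677), a basic helix-loop-helix factor required to specify the lineage, measured 20.4, 21.1, 21.2 and 19.6 CPM in the 4 uninjured libraries, 23.7, 27.6, 25.4 and 30.4 in the injured and 22.6, 20.6, 20.8 and 21.3 in the antibody-treated. The injured libraries lay above both other groups. The log2 fold change was 0.38 ± 0.0800 in injured against uninjured (adjusted p = 0.00852) and -0.33 ± 0.0802 in antibody-treated against injured mice (adjusted p = 0.0119), and both passed with each library left out. Removal of the trend left values of 0.09 (adjusted p = 0.403) and -0.10 (adjusted p = 0.344), and neither passed. Nkx6-2 (chr7:139579376-139582797), a homeodomain factor of mature oligodendrocytes with the highest G and C content of the members at 64.3%, measured 7.60, 11.02, 12.01 and 10.1 CPM in the 4 uninjured libraries, 14.5, 16.9, 15.4 and 17.4 in the injured and 13.3, 8.47, 11.3 and 15.5 in the antibody-treated. Its log2 fold change of 0.65 ± 0.17 in injured mice (adjusted p = 0.0180) became 0.24 with the trend removed (adjusted p = 0.129). The antibody-treated libraries of this gene overlapped both other groups. Nkx2-2 (chr2:147177546-147194243), which promotes the step from progenitor to oligodendrocyte, measured 3.43, 4.56, 4.23 and 3.76 CPM in the 4 uninjured libraries, 5.09, 5.79, 5.36 and 4.97 in the injured and 3.86, 3.63, 3.42 and 4.58 in the antibody-treated. It was higher in injured than in uninjured mice by 0.41 ± 0.12 (adjusted p = 0.0322) and lower in antibody-treated than in injured mice (log2 fold change -0.45 ± 0.12, adjusted p = 0.0208). The values kept their signs without the trend, at 0.18 (adjusted p = 0.317) and -0.31 (adjusted p = 0.0618), and did not pass.

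Sox10 (chr15:79154908-79165240), the factor that with Myrf switches on the myelin genes, measured 43.4, 46.7, 51.9 and 46.1 CPM in the 4 uninjured libraries, 52.7, 48.5, 45.6 and 56.5 in the injured and 43.7, 40.1, 38.0 and 40.9 in the antibody-treated. Antibody-treated libraries lay below the injured ones (log2 fold change -0.32 ± 0.0809, adjusted p = 0.0138), and the value was 0.0083 with the trend removed. Between injured and uninjured mice the groups overlapped, at 0.11 ± 0.0803 (adjusted p = 0.311), and the sign turned with the trend removed (-0.22, adjusted p = 0.03004). Olig1, the partner of Olig2, rose from 101 ± 9.77 to 128 ± 6.12 CPM in injured mice (log2 fold change 0.34 ± 0.0916, adjusted p = 0.0211) and was 115 ± 14.3 CPM in antibody-treated mice; with the trend removed the injured value was -0.0036. St18, a zinc finger factor, fell from 10.1 ± 1.44 to 6.80 ± 0.721 CPM (log2 fold change -0.58 ± 0.18, adjusted p = 0.0394), and the value of -0.23 with the trend removed did not pass (adjusted p = 0.189). Myrf itself was called in no comparison, at 58.1 ± 5.10, 62.0 ± 6.06 and 54.6 ± 7.99 CPM. No transcription factor of the 7 was called between antibody-treated and uninjured mice in the deposited counts.

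Of the 9 sheath proteins, 5 were lower and none higher in injured mice, and 4 of the 5 were lower in both analyses. Tspan2 (chr3:102734529-102801513), a tetraspanin of the sheath, had the smallest p of all members. It measured 176, 149.98, 149.6 and 157 CPM in the 4 uninjured libraries, 112, 94.4, 104 and 82.6 in the injured and 119.9, 127, 132 and 118 in the antibody-treated. The 3 groups did not overlap, in the order injured, antibody-treated, uninjured. Injured mice were lower than uninjured (log2 fold change -0.68 ± 0.0900, adjusted p = 0.000819; -0.42 with the trend removed, adjusted p = 8.91e-05). Antibody-treated mice were higher than injured by 0.34 ± 0.0901 (adjusted p = 0.0180; 0.17, adjusted p = 0.0248 with the trend removed). They were lower than uninjured mice (log2 fold change -0.34 ± 0.0897, adjusted p = 0.0294), a call lost in 5 of the 12 fits that left out a library.

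Cldn11 (chr3:31149920-31164324), the claudin that seals the layers of the sheath and is also a tight junction protein of the arachnoid, followed a like course. It measured 167, 171, 162 and 172 CPM in the 4 uninjured libraries, 142, 129, 128 and 117 in the injured and 157, 149.6, 156 and 172 in the antibody-treated. Injured libraries lay below both other groups. They were lower than uninjured (log2 fold change -0.38 ± 0.0663, adjusted p = 0.00377; -0.51, adjusted p = 0.00146 with the trend removed), and antibody-treated mice were higher than injured by 0.30 ± 0.0663 (adjusted p = 0.00779; 0.27, adjusted p = 0.0348). The difference of -0.08 ± 0.0662 between antibody-treated and uninjured mice did not pass (adjusted p = 0.428), and its 95% interval was -0.23 to 0.07.

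Mal (chr2:127633226-127656695), a proteolipid that carries sheath components to the membrane, showed another order. It measured 347, 345, 357 and 339 CPM in the 4 uninjured libraries, 247, 290.1, 287 and 272 in the injured and 270.1, 279, 265 and 277 in the antibody-treated. Both injured groups lay below the uninjured one and overlapped each other. The log2 fold change against uninjured was -0.34 ± 0.0577 in injured (adjusted p = 0.00319; -0.37, adjusted p = 4.15e-05 with the trend removed) and -0.35 ± 0.0578 in antibody-treated mice (adjusted p = 0.00178; -0.38, adjusted p = 1.04e-05). Antibody-treated and injured mice differed by -0.005 ± 0.0577, with a 95% interval of -0.14 to 0.13. Omg (chr11:79500982-79504084), the oligodendrocyte-myelin glycoprotein that inhibits neurite growth, measured 163, 155, 162 and 158 CPM in the 4 uninjured libraries, 128, 126, 123 and 112 in the injured and 137, 141, 129 and 146 in the antibody-treated. It fell in injured mice (log2 fold change -0.38 ± 0.0602, adjusted p = 0.00235; -0.19, adjusted p = 0.00348 with the trend removed). The antibody-treated libraries all lay between those of the other groups. Their rise of 0.18 ± 0.0603 over injured mice (adjusted p = 0.0477) turned to -0.09 with the trend removed, and the call was lost in 10 of the 12 fits that left out a library. Against uninjured mice they measured -0.20 ± 0.0602 (adjusted p = 0.0524; -0.28, adjusted p = 7.02e-05 with the trend removed).

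**Figure D3:**
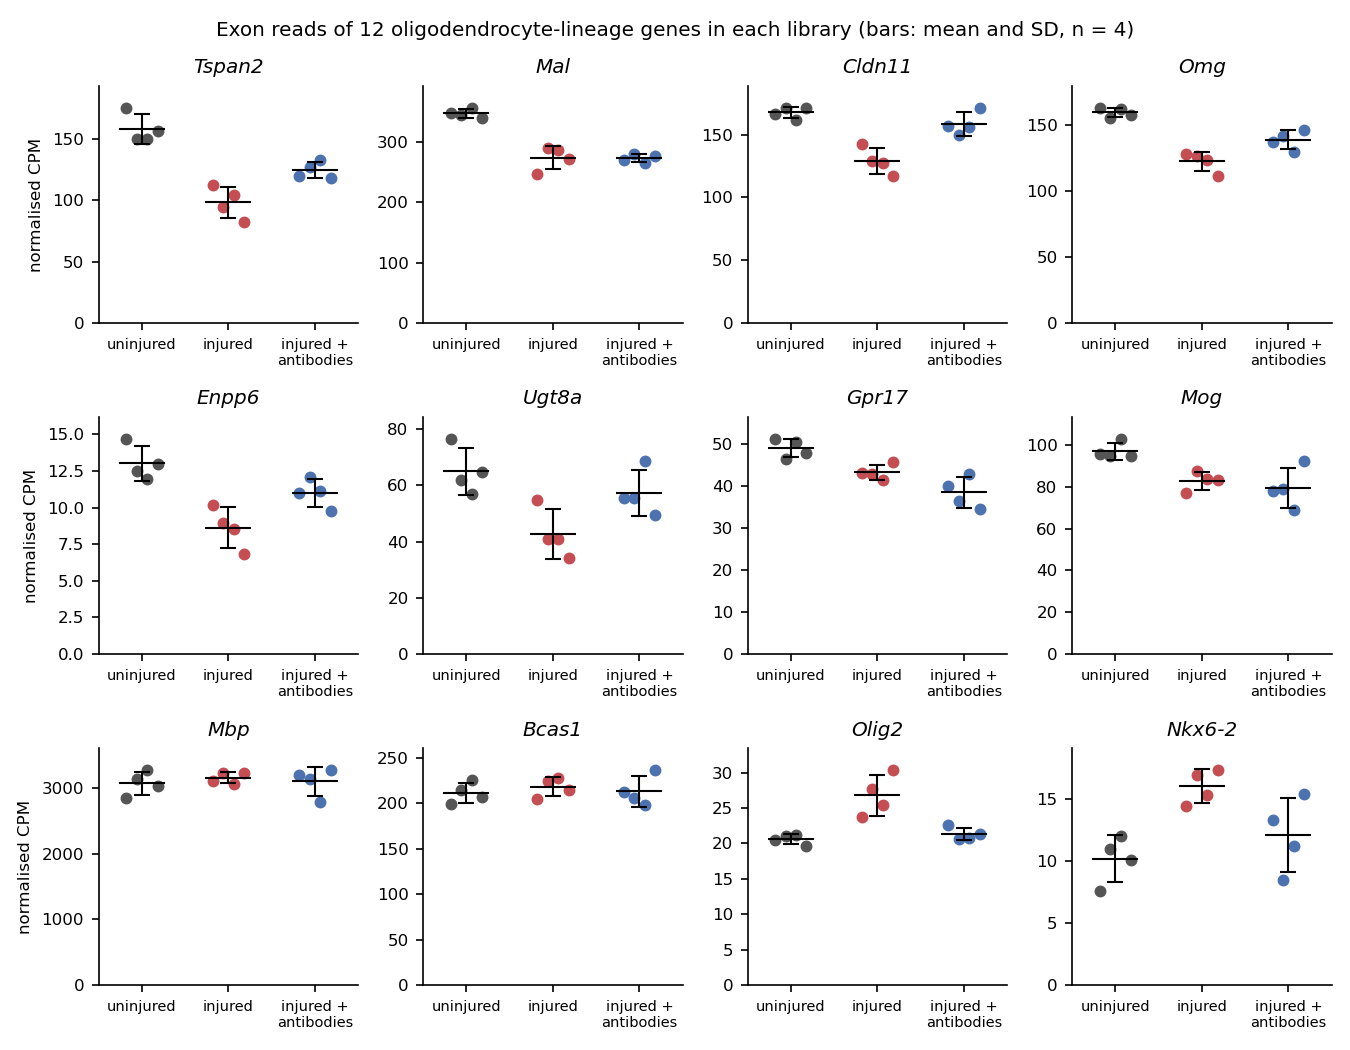
Normalised CPM (vertical axes, each from 0) of 12 of the genes in the 4 libraries of each group (points), with mean and SD (black bars). Injured points of Tspan2, Cldn11 and Omg lie below those of both other groups, the Mal points of both injured groups lie below the uninjured ones and overlap each other, and Mbp and Bcas1 overlap across all 3 groups.

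Per length, Mbp, which compacts the sheath, had the highest level of the 31 at 954 ± 76.2 TPM (SD over 12 libraries), followed by Trf at 395 ± 47.5, Cnp at 394 ± 43.7 and Mobp at 378 ± 21.8, and the levels of these last 3 overlapped. The lowest were Nkx2-2 at 4.37 ± 0.972, Enpp6 at 4.34 ± 0.742 and St18 at 3.33 ± 0.820 TPM, which also overlapped. Mbp, written out here for its abundance and not for a call, measured 2851, 3138, 3273 and 3036 CPM in the 4 uninjured libraries, 3109, 3228, 3061 and 3229 in the injured and 3204, 3133, 2787 and 3284 in the antibody-treated, with overlap of all 3 groups. Its log2 fold change was 0.04 ± 0.0628 in injured against uninjured mice, with a 95% interval of -0.10 to 0.18, and -0.03 ± 0.0628 in antibody-treated against injured mice, with an interval of -0.17 to 0.12. In TPM, which carries no TMM scaling, the mean level of Mbp was 905 ± 39.5 for uninjured mice, 1041 ± 65.6 after injury alone and 917 ± 19.8 with antibody. All 4 injured libraries (992 to 1138) lay above the uninjured (847 to 933) and the antibody-treated ones (890.0 to 938). The difference of 0.20 against uninjured mice on the log2(TPM + 1) scale passed in limma (adjusted p = 0.0321). On that scale the median difference of all genes was 0.16, and 33.0% of all genes were called higher in injured mice. Cnp, the cyclic nucleotide phosphodiesterase of uncompacted myelin, measured 380.4 ± 25.2, 388 ± 17.8 and 349 ± 31.7 CPM and was not called. Its log2 fold change of 0.03 ± 0.0729 in injured mice turned to -0.18 with the trend removed, which passed (adjusted p = 0.00196). Mobp, a basic protein of compact myelin, fell from 1093 ± 20.2 to 982 ± 49.9 CPM (log2 fold change -0.15 ± 0.0512, adjusted p = 0.0451), which did not pass with the trend removed (-0.18, adjusted p = 0.144) and was 0.0050 on the TPM scale described below. Mog, a protein of the outer sheath surface, measured 97.0 ± 4.06, 82.8 ± 4.39 and 79.4 ± 9.67 CPM. It was lower in antibody-treated than in uninjured mice (log2 fold change -0.29 ± 0.0808, adjusted p = 0.0406; -0.46, adjusted p = 2.03e-06 with the trend removed), a call lost in 7 of the 12 fits that left out a library. In injured mice -0.23 ± 0.0805 did not pass (adjusted p = 0.0561; -0.35, adjusted p = 0.000109 with the trend removed). Mag, an adhesion protein of the innermost layer, measured 241 ± 15.5, 265 ± 20.0 and 215 ± 19.9 CPM. It was lower in antibody-treated than in injured mice (log2 fold change -0.30 ± 0.0794, adjusted p = 0.0175) and did not pass with the trend removed (-0.10, adjusted p = 0.0507). Against uninjured mice, its value in injured mice was 0.13 ± 0.0793 (adjusted p = 0.227) and turned to -0.14 with the trend removed (adjusted p = 0.0159).

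Among the other proteins of mature cells, Ermn (chr2:58045113-58052864), a cytoskeletal protein of late myelination, measured 87.3, 72.7, 70.1 and 75.9 CPM in the 4 uninjured libraries, 66.0, 61.7, 67.9 and 50.2 in the injured and 76.4, 81.2, 87.8 and 71.2 in the antibody-treated. Injured libraries lay below both other groups, at -0.32 ± 0.10 against uninjured (adjusted p = 0.0409), with antibody-treated mice 0.37 ± 0.10 above injured (adjusted p = 0.0226). Neither passed with the trend removed, at 0.09 and 0.01. Tmem88b (chr4:155781591-155785874), a membrane protein gene used as a mature oligodendrocyte marker, measured 90.02, 81.1, 84.4 and 84.2 CPM in the 4 uninjured libraries, 71.3, 69.3, 76.8 and 72.1 in the injured and 69.3, 72.1, 80.6 and 64.7 in the antibody-treated. Both injured groups lay below the uninjured one, at log2 fold changes of -0.23 ± 0.06999 (adjusted p = 0.0330) and -0.24 ± 0.0702 (adjusted p = 0.0442), and of -0.20 and -0.22 with the trend removed (adjusted p = 0.0275 and 0.0141). These calls were lost in 5 and 11 of the 12 fits that left out a library. Opalin, a glycoprotein of the myelin loops, measured 37.8 ± 3.89, 38.4 ± 3.35 and 32.7 ± 4.72 CPM with no call. With the trend removed, its values in antibody-treated mice passed against both injured (-0.40, adjusted p = 0.00298) and uninjured mice (-0.35, adjusted p = 0.00699).

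The enzymes of myelin lipids were represented by 3 genes. Ugt8a (chr3:125865271-125938619) makes galactosylceramide, the main glycolipid of myelin, and measured 76.7, 62.1, 56.8 and 64.8 CPM in the 4 uninjured libraries, 55.0, 41.0, 40.8 and 34.1 in the injured and 55.6, 55.7, 68.6 and 49.5 in the antibody-treated. It was lower in injured than in uninjured mice (log2 fold change -0.61 ± 0.14, adjusted p = 0.0122), with a smaller value of -0.19 with the trend removed (adjusted p = 0.0473). Antibody-treated mice overlapped both groups, and their call against injured mice (0.43 ± 0.14, adjusted p = 0.0471) was lost with the trend removed (0.09) and in 9 of the 12 fits that left out a library. Aspa (chr11:73304992-73329596), which frees acetate from N-acetylaspartate for lipid synthesis, measured 26.6, 26.1, 26.8 and 26.4 CPM in the 4 uninjured libraries, 22.3, 22.2, 21.98 and 14.7 in the injured and 24.2, 25.3, 24.5 and 28.7 in the antibody-treated. Injured libraries lay below both other groups, at -0.38 ± 0.12 against uninjured (adjusted p = 0.0322), and the value was -0.08 with the trend removed (adjusted p = 0.473). Antibody-treated against injured mice gave 0.34 ± 0.12 (adjusted p = 0.0510). Fa2h, which adds the hydroxyl group to myelin sphingolipids, measured 45.7 ± 3.21, 40.2 ± 1.81 and 39.8 ± 1.61 CPM. It was not called in the deposited counts (-0.18 ± 0.0663, adjusted p = 0.0591 in injured mice) and was called lower with the trend removed (-0.40, adjusted p = 0.00168). Trf, the iron carrier transferrin, measured 423 ± 30.0, 472 ± 36.1 and 468 ± 54.5 CPM and was called in no comparison. Its values are uncertain, because only 15.0% of its exon reads were unique to it and it shares 2108 exon bases with the annotated gene Gm20425.

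Gjc3 (chr5:137953461-137963098), a connexin of myelinating glia, measured 63.0, 58.9, 51.5 and 54.0 CPM in the 4 uninjured libraries, 49.7, 45.7, 47.8 and 43.2 in the injured and 49.2, 50.2, 55.3 and 44.3 in the antibody-treated. Injured libraries lay below the uninjured ones (log2 fold change -0.29 ± 0.0832, adjusted p = 0.0281), and the value was -0.08 with the trend removed (adjusted p = 0.304). Gpr37, a receptor that restrains oligodendrocyte differentiation, measured 72.5 ± 2.96, 71.4 ± 2.44 and 63.1 ± 8.59 CPM and was not called in the deposited counts. Once the trend was removed, it was lower in antibody-treated than in injured mice (-0.14, adjusted p = 0.0411).

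In antibody-treated against uninjured mice, 5 of the 31 members were lower and 0 higher, against 3.22% and 6.3% of all genes. The antibody-treated libraries lay below all uninjured ones for 8 members and above them for 0, against 6.56% and 9.01% of all genes. At an unadjusted p under 0.05, 12 members passed, against 27.0% of all genes. DESeq2's Wald test, run with DESeq2's own filter on mean count in place of the one above, called 8 lower and 0 higher. Over all genes the shares were 4.12% and 4.9% of the 20683 with a p-value. That number includes any genes of low count that DESeq2's filter kept from being called, so these shares are lower bounds. With the trend removed, 11 were lower and 0 higher, against 7.27% and 10.3% of all genes, and the 5 (Mal, Gpr17, Tspan2, Mog and Tmem88b) were among them, beside Sox10, Mag, Cnp, Omg, Opalin and Fa2h. In antibody-treated against injured mice, 5 members were higher and 5 lower, against 10.9% and 10.7% of all genes. At an unadjusted p under 0.05, 15 passed, against 35.7% of all genes. The higher ones were Cldn11, Tspan2, Ermn, Ugt8a and Omg, and the lower ones Olig2, Sox10, Mag, Nkx2-2 and Cspg4. Of these, the call of Nkx2-2 was lost in 4 of the 12 fits that left out a library, those of Mag and Ermn in 2 and that of Sox10 in 1. Without the trend, 3 were higher (Cldn11, Tspan2 and Olig1) and 2 lower (Opalin and Gpr37), against 10.9% and 7.14% of all genes, and only Cldn11 and Tspan2 were called the same way in both analyses. The 3 comparisons share libraries, so their values are not independent of each other. Antibody-treated libraries lay above all injured ones for 5 members and below them for 4, against 10.6% and 11.4% of all genes.

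**Figure D4:**
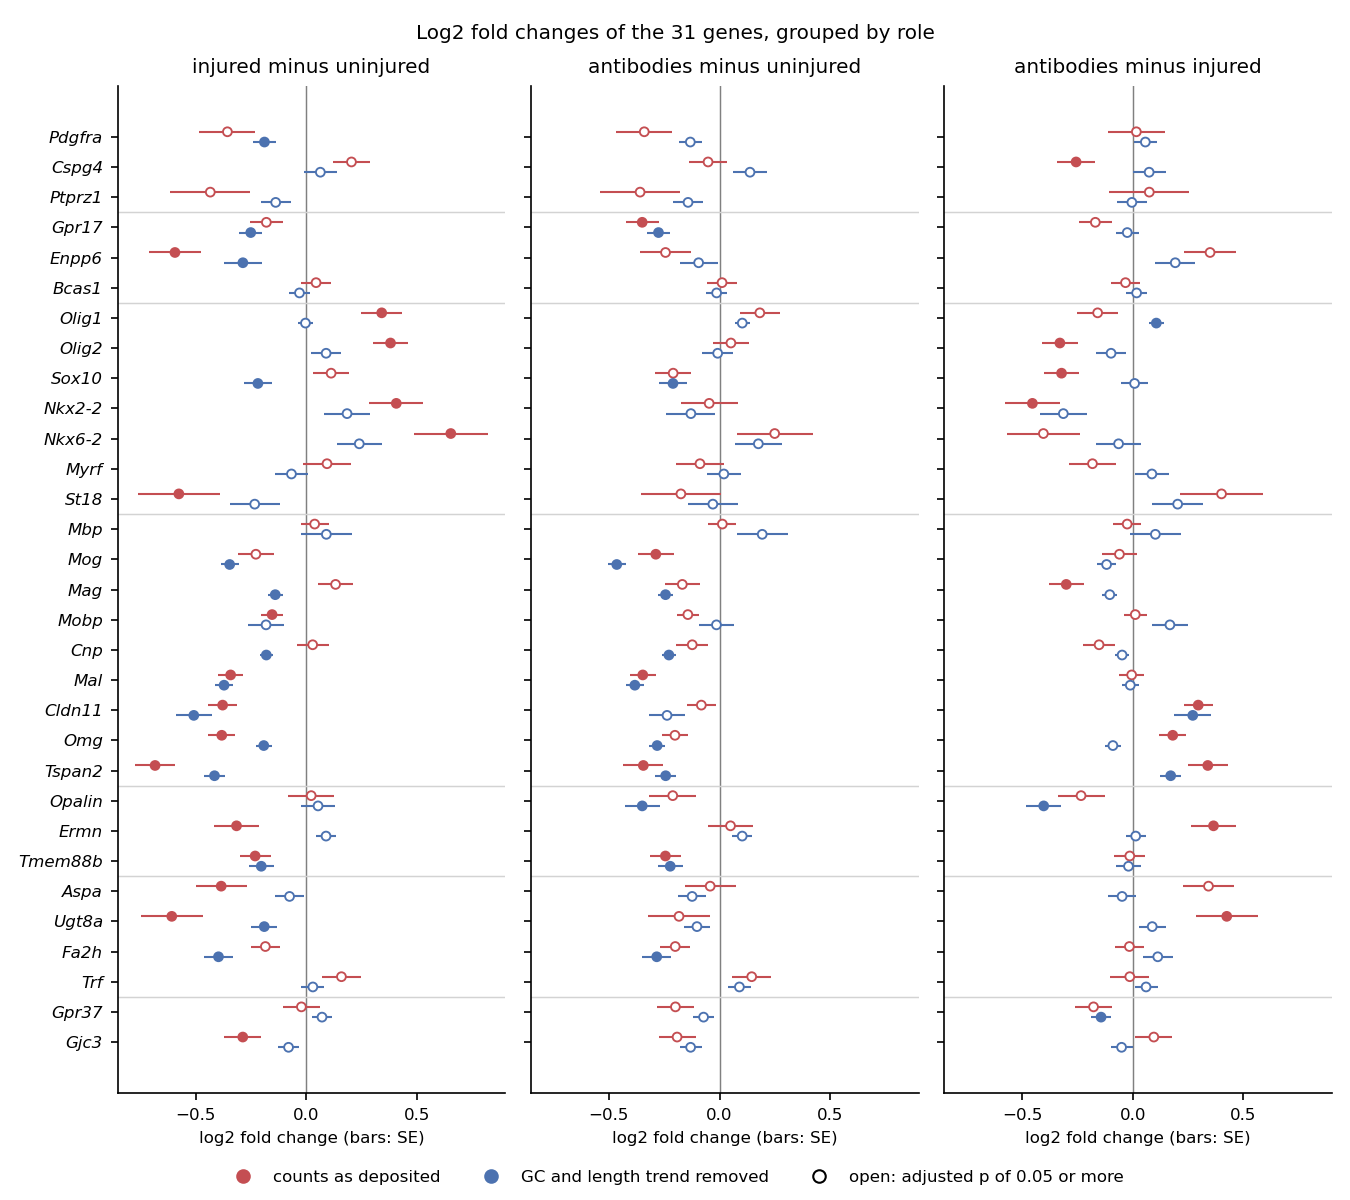
Log2 fold change with SE (horizontal axis) of the 31 genes, grouped by role, in the 3 comparisons, from the counts as deposited (red) and with the trend of G and C content and length removed (blue); filled points passed an adjusted p of 0.05. For Mal and Tspan2 both points are filled and below 0 in both comparisons with uninjured mice. For Olig1, Olig2 and Nkx6-2 the blue points of injured against uninjured mice are open.

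The scale of the libraries also bears on these counts. Deposited TPM values, tested with limma on log2(TPM + 1), moved the median of all genes to 0.16 for injured against uninjured and to -0.13 for antibody-treated against injured mice. On that scale 11 members were higher and 6 lower in injured than in uninjured mice, against 33.0% and 2.24% of all genes. In antibody-treated against injured mice 0 were higher and 13 lower, against 4.55% and 23.9% of all genes. With library size alone as the scale, which moved the median of all genes to 0.11 for injured against uninjured mice, 5 were higher and 6 lower in that comparison, against 21.4% and 6.74% of all genes. Tspan2, Mal, Cldn11, Omg, Enpp6 and Ugt8a were lower in injured mice and passed on each of these scales. Cldn11 and Tspan2 kept their signs in antibody-treated against injured mice on the TPM scale but did not pass, at 0.14 (adjusted p = 0.132) and 0.19 (adjusted p = 0.175).

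Reads over introns gave a further readout of the same genes with far fewer reads. Of the 31 members, 25 passed the filter on intron reads, and 1 was called in any comparison: Cspg4, lower in antibody-treated than in injured mice (log2 fold change -0.86 ± 0.27, adjusted p = 0.0489). It rested on 5 to 12 intron reads per antibody-treated library and 19 to 23 per injured library. Over all genes, 4.1% were lower and 5.4% higher by intron reads in that comparison, 0.346% and 0.142% in injured against uninjured and 0.204% and 0.47% in antibody-treated against uninjured mice. In injured against uninjured mice, Ugt8a had a log2 fold change of -1.11 ± 0.27 (adjusted p = 0.0736), Cldn11 -0.42 ± 0.17 (adjusted p = 0.221), Mal -0.45 ± 0.26 (adjusted p = 0.385) and Tspan2 -0.29 ± 0.15 (adjusted p = 0.342). These 4 differences did not pass. Over the 3 comparisons, members had 10 calls from intron reads without antibody-treated replicate 3, and 0 with any one of 8 other libraries left out.

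Sequence upstream of the start is shown for 3 members that fell together, the first in order of p, whose window was in the RefSeq table (GRCm38.p6) and free of annotated exons. They were taken in that order after the values were seen: Tspan2 overlaps an exon and Omg has no entry. Each line gives the 250 bases before the start, 5′ to 3′ on the strand of the gene, with any match of the SOX-type motif ACAAT, on either strand, in capitals.
Mal, chr2:127656696-127656945, minus strand: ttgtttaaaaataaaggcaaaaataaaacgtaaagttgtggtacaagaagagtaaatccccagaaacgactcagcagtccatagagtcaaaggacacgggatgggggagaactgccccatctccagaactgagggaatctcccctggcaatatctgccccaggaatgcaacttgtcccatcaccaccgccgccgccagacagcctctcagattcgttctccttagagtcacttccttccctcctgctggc
Cldn11, chr3:31149670-31149919, plus strand: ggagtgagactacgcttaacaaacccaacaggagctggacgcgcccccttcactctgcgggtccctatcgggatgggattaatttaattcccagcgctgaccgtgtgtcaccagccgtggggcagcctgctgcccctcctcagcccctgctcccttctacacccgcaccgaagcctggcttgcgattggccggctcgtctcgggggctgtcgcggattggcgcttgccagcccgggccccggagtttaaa
Enpp6, chr8:46986637-46986886, plus strand: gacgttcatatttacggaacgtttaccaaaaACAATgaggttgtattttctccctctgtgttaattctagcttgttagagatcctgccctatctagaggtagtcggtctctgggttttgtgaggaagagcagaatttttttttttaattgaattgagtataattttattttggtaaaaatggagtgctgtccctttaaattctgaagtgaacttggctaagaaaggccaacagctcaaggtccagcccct
Enpp6 holds 1 match and the other windows none. Of the 21 members in the table, 7 hold ACAAT or its reverse complement, or 33.3%, against 27.4% of 32536 windows of this length. The E-box CAGCTG, its own reverse complement and without overlap with ACAAT, is in 1 of the 21 (4.8%) and in 13.1% of all windows. A match of letters is a description and shows no binding.

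Further genes of the lineage came from lists of 38 mature and 24 progenitor or committed genes, chosen with earlier results known. Of the 38 mature genes, all tested, 4 were higher and 4 lower in injured than in uninjured mice, 3 and 2 in antibody-treated than in uninjured mice, and 5 and 4 in antibody-treated than in injured mice. Of the 24 progenitor genes, all tested, the same counts were 2 and 3, 1 and 1, and 2 and 2. Median log2 fold changes lay between -0.08 and 0.05 in these 6 cases. Over all tested genes, 11.9% were higher and 11.0% lower in injured than in uninjured mice. For antibody-treated mice the same shares were 6.3% and 3.22% against uninjured, and 10.9% and 10.7% against injured mice. Genes of smallest p in each direction are described for each comparison. Id4, which holds back differentiation, fell from 103 ± 3.69 to 77.0 ± 6.74 CPM (log2 fold change -0.42 ± 0.0676, adjusted p = 0.00246) and rose again in antibody-treated mice, to 102 CPM (log2 fold change against injured 0.41, adjusted p = 0.00144). Both calls held with the trend removed. Enpp2, which makes lysophosphatidic acid and is abundant in choroid plexus as well, fell from 651 ± 22.5 to 432 ± 17.4 CPM (log2 fold change -0.59 ± 0.0569, adjusted p = 6.4e-05) and was 677 CPM in antibody-treated mice, and its calls in both comparisons also held.

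Higher in injured mice were Bcan, a proteoglycan of perineuronal matrix and progenitors, from 227 ± 17.8 to 307 ± 13.8 CPM (log2 fold change 0.43 ± 0.0707, adjusted p = 0.00273), the matrix protein gene Matn4, from 7.59 ± 0.979 to 11.04 ± 0.569 CPM (log2 fold change 0.54 ± 0.117, adjusted p = 0.00981), and Hapln2, a link protein of the node, from 14.8 ± 1.22 to 21.6 ± 0.768 CPM (log2 fold change 0.55 ± 0.0942, adjusted p = 0.00344). These 3 calls held with the trend removed, at 0.14, 0.43 and 0.24. Bcan was lower in antibody-treated than in injured mice (-0.57 ± 0.0709, adjusted p = 0.000232), as were Kif1c, a kinesin, (-0.39 ± 0.0600, adjusted p = 0.000866) and Lingo1, an inhibitor of differentiation that neurons also make (-0.39 ± 0.0644, adjusted p = 0.00156), of which Lingo1 lost its call with the trend removed. In antibody-treated against uninjured mice, Apod, a lipid carrier that fibroblasts and mural cells also make, rose from 203 ± 22.8 to 335 ± 57.3 CPM (log2 fold change 0.73 ± 0.124, adjusted p = 0.00221), and Matn4 and the cytokine gene Il33 rose by 0.55 and 0.30. Lingo1, the microtubule protein gene Tppp and the semaphorin gene Sema4d fell by 0.24, 0.37 and 0.19, and Sema4d lost its call with the trend removed. Il33 was also higher than in injured mice, by 0.29 ± 0.0653 (adjusted p = 0.00815), a call lost with the trend removed.

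Markers of other cells and regions moved between the groups beside these results. The shares over all tested genes are those given above for the lineage lists. Of 7 fibroblast genes (Col1a2 and Col3a1 the most abundant), 4 were higher in injured and 7 in antibody-treated than in uninjured mice, with summed levels of 64.5 to 67.7 CPM in the uninjured group, 99.0 to 106 in the injured group and 396 to 420 in the antibody-treated group. Of 8 choroid plexus genes (Ttr, Kl), 4 were lower in injured than in uninjured mice and 8 higher in antibody-treated than in injured mice, summing to 971 to 1294, 791 to 1089 and 1131 to 1885 CPM. Of 6 arachnoid barrier genes (Slc6a13, Aldh1a2), 4 were higher in each injured group, at 23.3 to 27.3, 35.7 to 38.7 and 35.9 to 38.9 CPM. Of 8 skeletal muscle genes (Acta1, Atp2a1), 8 were higher in antibody-treated mice than in either other group, at 9.48 to 14.0, 13.1 to 14.9 and 107 to 148 CPM.

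Genes typical of brain regions differed as well. Of 10 thalamic genes (Rora, Prkcd), 7 were higher in each injured group than in uninjured mice, at 206 to 258, 273 to 309 and 282 to 336 CPM. Of 10 striatal genes (Ppp1r1b, Penk), 4 were lower in injured mice and 4 higher in antibody-treated than in injured mice, at 1485 to 1570, 1214 to 1243 and 1304 to 1423 CPM. Of 9 cortical genes (Mef2c, Rasgrf2), 4 were lower and 1 higher in injured than in uninjured mice, at 1048 to 1312, 887 to 1067 and 833 to 1094 CPM. Of 8 neuronal genes (Snap25, Syt1), 4 were lower and 1 higher, at 6850 to 7362, 5826 to 6469 and 5852 to 6512 CPM. Of 8 microglia and macrophage genes (Csf1r among the most abundant), 3 were higher and 1 lower in injured mice, at 432 to 472, 522 to 569 and 555 to 664 CPM. Of 9 astrocyte genes (Slc1a2, Aldoc), 2 were higher and none lower in either injured group than in uninjured mice, and of 10 mural genes (Rgs5, Vtn), 2 were higher and 2 lower in injured mice. The astrocyte sums were 4586 to 5300, 4666 to 4962 and 4493 to 5072 CPM, and the mural sums 334 to 364, 332 to 351 and 342 to 359 CPM. The counts above are from the deposited counts, and some differed with the trend removed. In injured against uninjured mice, striatal genes went from 4 to 9 lower, choroid plexus genes from 4 to 7 lower, cortical genes from 4 to 1 lower with 1 higher in both, neuronal genes from 4 to 3 lower and from 1 to 0 higher, and thalamic genes from 7 to 8 higher. Fibroblast genes went from 4 to 5 higher, arachnoid genes from 4 to 3, microglia and macrophage genes from 3 to 2 and mural genes from 2 to 1. In antibody-treated against uninjured mice, thalamic genes went from 7 to 10 higher, arachnoid genes from 4 to 3 and astrocyte genes from 2 to 3. Microglia and macrophage genes went from 3 to 5 higher and from 0 to 1 lower. Striatal genes went from 0 to 4 lower, neuronal genes from 2 to 4 and cortical genes from 3 to 4. In antibody-treated against injured mice, striatal genes went from 4 to 6 higher, while the 7 fibroblast, 8 choroid plexus and 8 muscle genes were all higher in both analyses. Astrocyte genes went from 1 to 2 higher in that comparison, neuronal genes from 3 to 2 lower and mural genes from 1 to 0 lower. Thalamic genes went from 0 to 1 higher and from 1 to 0 lower. The part of these cells and regions in the values of the 31 members was not tested.

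Schwann cells, which myelinate peripheral nerves, share several of the 31 genes. Of 10 of their genes, 4 passed the filter. The defining genes Ncmap, Pmp2, Cldn19, Dhh and Foxd3 did not, with group means of at most 0.635 CPM. Foxd3 had no read in any uninjured or injured library, and Pmp2 none in any injured or antibody-treated library. Egr2, which neurons also express, was higher in injured mice (log2 fold change 0.70 ± 0.12, adjusted p = 0.00344), and Drp2 was the most abundant of the list and was lower in antibody-treated than in uninjured mice (-0.41 ± 0.0938, adjusted p = 0.0140). Cdh19 went the other way from Egr2, from 8.26 ± 1.33 CPM in uninjured to 5.10 ± 1.28 in injured mice. This difference did not pass (log2 fold change -0.70 ± 0.24, adjusted p = 0.0521). Summed, the list was at 97.3 to 116, 90.2 to 99.3 and 70.1 to 97.9 CPM. Most of this was Drp2, with means of 88.8 CPM in uninjured and 76.0 in injured mice.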

How the data were processed

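RNA from 12 libraries was read as the authors' deposited gene tables, 1 per library, holding counts of total exon reads, counts of intron reads and TPM, per the file headers. CASAVA 1.8.2, FastQC 0.11.8, Trimmomatic 0.39 and the build GRCm38 are named per the submitters' processing notes. Not given in the sources used here are the aligner, the counting rule and the use of strand. Members whose exons overlap a gene of the opposite strand could therefore share reads with it. These are Nkx2-2, Bcas1, Tspan2, Pdgfra, Ermn, Nkx6-2, Gpr17, Cnp and Olig1. All 25749 gene positions matched GENCODE M21.

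Exon counts were tested with edgeR 4.0.16 (R 4.3.3; quasi-likelihood, filterByExpr, TMM, all 12 libraries, 9 residual degrees of freedom, Benjamini-Hochberg), and intron counts likewise. The base composition trend was fitted per library with mgcv 1.9.3 on log2 CPM (prior count 2) and used as an offset. Alternatives used DESeq2 1.42.0 and limma 3.58.1. The code was tested on simulated data. The 31 members and all lists were chosen with earlier results of these data known. Values in every library are given, within each role, for up to 4 members of smallest p that passed in any comparison, plus Mbp. A few list genes are not reported here. The pairing check and other limits stand in the closing section.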

Additional observations from a re-analysis of the deposited data

Results flagged for a closer look

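Of 93 sets of 4 libraries (31 genes in 3 groups), 4 held a library far from the other three, and chance alone gives about 1 in 20. Uninjured replicate 3 was highest for Mog, at 103 CPM, and for Opalin, at 43.6 CPM. Injured replicate 4, the library at one end of the base composition trend, was lowest for Aspa, at 14.7 CPM. Injured replicate 1 was lowest for Trf, at 418 CPM.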

How the results depend on the processing

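Counts of the 31 members are given as higher and lower in injured against uninjured, lower in antibody-treated against uninjured, and higher and lower in antibody-treated against injured mice (4 and 12, 5, 5 and 5 in the deposited counts); antibody-treated against uninjured mice had 0 higher under every alternative run. With the base composition trend removed the counts were 0 and 14, 11, 3 and 2, and 0 and 12, 11, 1 and 1 with the replicate block as well. With limma on TPM they were 11 and 6, 3, 0 and 13 at a pseudocount of 1 or 0.1, and 11 and 6, 2, 0 and 13 for genes of mean TPM of at least 1. Without both libraries at the ends of the trend they were 0 and 5, 3, 3 and 3, and 0 and 9, 9, 0 and 1 with the trend removed as well, alternatives chosen after seeing the data. Library size alone gave 5 and 6, 3, 3 and 5. DESeq2's Wald test gave 3 and 16, 8, 7 and 4, and the compared groups alone 4 and 17, 3, 3 and 4. The replicate block gave 3 and 9, 3, 5 and 4. Correlations of same-numbered libraries ranged from -0.53 to 0.43. Only injured replicate 1, set against the uninjured libraries, correlated best with its own number. With 4 libraries per group, these correlations cannot show whether same-numbered libraries shared a batch. Member calls from intron reads, 1 over the 3 comparisons, were 3 with library size alone, 3 with no filter and 0 with the replicate block. The cause of these changes was not tested.

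Leaving out each library in turn gave 1 to 4 higher and 6 to 17 lower in injured against uninjured mice, 0 higher and 2 to 9 lower in antibody-treated against uninjured, and 2 to 7 higher and 2 to 7 lower in antibody-treated against injured mice, and 0 to 10 calls from intron reads. In injured against uninjured mice, 1 was higher without uninjured replicate 1 or injured replicate 4, and 2 without uninjured replicate 4 or injured replicate 2 or 3; 6 were lower without uninjured replicate 1, and 7 without uninjured replicate 2 or 4 or injured replicate 2 or 4. In antibody-treated against uninjured mice, 2 were lower without uninjured replicate 1 or 4 or antibody-treated replicate 1 or 2, 3 without uninjured replicate 2 or 3 or injured replicate 2, and 9 without antibody-treated replicate 3. In antibody-treated against injured mice, 2 were higher without antibody-treated replicate 2 or injured replicate 4, and 3 without antibody-treated replicate 1, injured replicate 2 or 3, or uninjured replicate 2, 3 or 4; 2 were lower without antibody-treated replicate 2 or injured replicate 4, and 3 without injured replicate 3. Calls from intron reads were 10 without antibody-treated replicate 3, and 0 without any one of the 4 uninjured libraries, injured replicate 2, 3 or 4, or antibody-treated replicate 1.

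Log2 fold changes that turned are given with the trend removed, then with the replicate block as well, then without both end libraries as well. In injured against uninjured mice these were -0.00358, -0.00355 and -0.0214 for Olig1, -0.14, -0.14 and -0.16 for Mag, -0.18, -0.18 and -0.20 for Cnp, and 0.0895, 0.0887 and 0.0871 for Ermn. For Sox10 they were -0.22 and -0.22 in the first 2 settings. Mobp was 0.0050 with limma on TPM in all 3 settings. In antibody-treated against injured mice they were 0.0741, 0.0746 and 0.0845 for Cspg4, 0.00826, 0.00846 and 0.0419 for Sox10, -0.0898, -0.0897 and -0.0713 for Omg, and 0.11 for Olig1 in the first setting. Intron reads numbered 821769 to 1179373 per library, and whether depth or spread between libraries sets the number of intron calls was not tested.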
